A study of Mus musculus with 12 samples.

Results

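The collagen genes are the protein-coding genes whose symbols read Col, a type number, a and a chain number. The count table held 44 of them among 78334 gene IDs, and all 44 had at least 10 reads over the 12 mouse hypothalamus libraries. By the structure of their proteins they fell into 11 fibrillar chains, 6 chains of basement membrane type IV, 6 beaded filament chains of type VI, 9 FACIT chains (fibril-associated collagens with interrupted triple helices), 3 short chains of types VIII and X, 2 multiplexins, 4 transmembrane collagens and 3 others (Col7a1, Col26a1 and Col28a1). Levels are given in CPM (read counts scaled to the size of the library, with TMM factors), and log2FC is the log2 of the fold change.

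The study sequenced hypothalamic poly(A) RNA of male C57BL/6 mice that were 8 weeks of age when the diets started. Obesity was induced with a high-fat diet (HFD) that gave 60% of its kcal as fat. The groups were Ob + RSV (HFD and resveratrol at 2.25 mg/kg, 3 libraries), Ob + EAE (HFD and aged garlic extract at 200 mg/kg, 2 libraries), Ob + CUR (HFD and curcumin at 50 mg/kg, 1 library), Ob (HFD and vehicle, 3 libraries) and C (standard chow and vehicle, 3 libraries). The gavage was given daily for 28 days from 16 weeks of age in every group. The labels give 8 weeks of HFD in total and also place the first gavage after 8 weeks of HFD, so the length of the HFD in Ob and in the treated groups is not settled by them. Obesity was set by diet alone, with no transgene.

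Collagens are secreted or membrane-bound proteins in which chains wind into a triple helix. In the brain, type IV chains form the network of the basement membrane around blood vessels. The fibrillar chains of types I and III are made chiefly by fibroblasts of the meninges and of the perivascular space. Several FACIT and transmembrane chains are made by neurons. Brain tissue is poor in interstitial fibrils, so that fibrillar chains such as Col1a1 and Col3a1 are minor transcripts in it.

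The libraries held 15655156 to 26284661 counts, of which 0.0624% (Ob + RSV replicate 1) to 0.1307% (C replicate 3) fell on the collagen genes. Markers of hypothalamic neurons were present in every library, with a summed level of 280.2 CPM in Ob + CUR and 969.1 to 3156 CPM elsewhere. The anterior pituitary list summed to 0.942 to 18.1 CPM, and Lhb was at 0 in all libraries. Both Ob + EAE libraries and the Ob + CUR library stood apart: their transcripts averaged 6248 to 6603 bases when weighted by reads, against 4954 to 5995 bases in the other 9, and 37165 to 38081 genes were detected, against 24450 to 36541. The Ob + EAE libraries were also closer to each other than any other pair of 1 group, with a mean chi-square per gene of 6.51, against 22.4 to 73.1 (sampling noise alone gives about 1). Some pairs across groups were closer than 22.4 too. C replicate 3 with Ob replicate 3 gave 10.1, C replicate 1 with Ob + EAE replicate 1 gave 18.1, and Ob replicate 3 with Ob + RSV replicate 3 gave 21.6. The Ob + CUR library gave 12.6 with Ob + EAE replicate 1 and 11.6 with Ob + EAE replicate 2. In C replicate 2, Ob replicate 1 and Ob + RSV replicate 2, genes with under 10 reads made up 7.30% to 23.3% of the detected genes, against 27.7% to 43.5% in the other 9 libraries. No batch or run is given in the labels, so treatment and library preparation cannot be told apart for Ob + EAE and Ob + CUR. For the other 9 libraries, the labels do not show whether libraries of different groups shared a preparation.

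The promoters of the chains Col4a1 and Col4a2 are shown because these chains, which join in 1 trimer of the vascular basement membrane, start next to each other on opposite strands, and their levels are compared below. The windows run from 250 bases before to 50 bases after the start (RefSeq, build GRCm38.p6), and lie at chr8:11312777-11313076 (minus strand, Col4a1) and chr8:11312555-11312854 (plus strand, Col4a2). The 2 starts are 21 bases apart and the windows share 78 bases. Capitals mark a CCAAT box (CCAAT, or ATTGG on the other strand) and a GC box (GGGCGG, or CCGCCC on the other strand).
Col4a1: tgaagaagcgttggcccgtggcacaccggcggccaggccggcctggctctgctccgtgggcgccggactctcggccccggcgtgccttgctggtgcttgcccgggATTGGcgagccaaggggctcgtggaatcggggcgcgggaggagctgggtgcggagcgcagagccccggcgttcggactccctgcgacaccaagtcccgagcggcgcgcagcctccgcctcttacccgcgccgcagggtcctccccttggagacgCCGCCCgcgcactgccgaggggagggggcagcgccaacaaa
Col4a2: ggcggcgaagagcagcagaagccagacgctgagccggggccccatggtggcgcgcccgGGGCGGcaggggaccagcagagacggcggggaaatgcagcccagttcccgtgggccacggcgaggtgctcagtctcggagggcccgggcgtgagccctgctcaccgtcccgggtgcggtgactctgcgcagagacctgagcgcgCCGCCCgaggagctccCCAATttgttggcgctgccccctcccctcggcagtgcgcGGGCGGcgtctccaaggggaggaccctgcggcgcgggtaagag
The Col4a1 window held 1 CCAAT box and 1 GC box, and the Col4a2 window held 1 CCAAT box and 3 GC boxes. Neither held TATAAA. Of the 44 genes, 35 matched a RefSeq window by symbol, with 38 windows in all. A GC box was found in 60.5% of these windows and in 35.7% of the 32851 windows of all genes, a CCAAT box in 34.2% and 37.4%, and TATAAA (or TTTATA) in 13.2% and 13.6%. These are matches of letters, not sites.

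Type IV and fibrillar chains took the largest shares of the collagen reads, not corrected for length. Averaged over the libraries, type IV chains gave 26.9% of the collagen CPM, fibrillar chains 22.2%, FACIT chains 19.6%, transmembrane collagens 14.2%, type VI chains 7.84%, multiplexins 5.70%, the other chains 2.77% and types VIII and X 0.876%. A single chain led most classes: Col4a2 made up 65.0% of type IV, Col25a1 77.6% of the transmembrane class and Col16a1 53.5% of the FACIT class, whereas Col11a1 made up 30.5% of the fibrillar class. Per kilobase of exon, where genes can be compared, Col4a2 had the highest level, followed by Col16a1, Col9a2, Col4a1 and Col25a1. Of the chains of the common interstitial fibril, Col1a1 averaged 6.47 CPM, Col1a2 13.6 CPM and Col3a1 1.60 CPM. Col10a1, a chain of hypertrophic cartilage, averaged 0.18 CPM and was at 0 in 3 libraries.

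**Figure D1:**
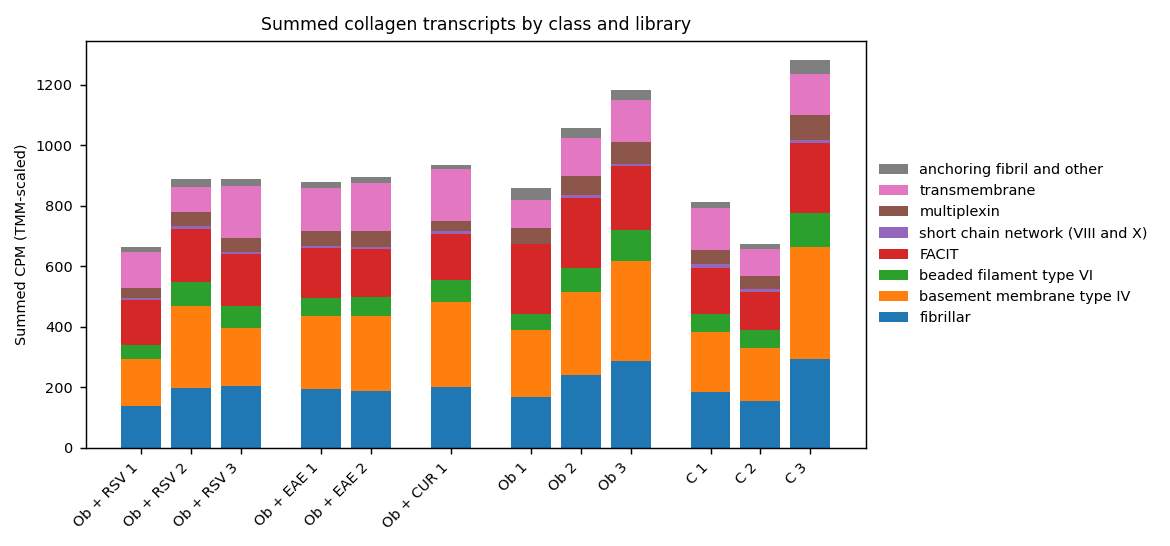
Summed CPM (TMM-scaled) of the collagen classes in each of the 12 libraries, stacked by class, with the groups from Ob + RSV on the left to C on the right. The tallest bar is C replicate 3 (1281 CPM) and the shortest is Ob + RSV replicate 1 (662 CPM), and C holds both the tallest bar and the second shortest.

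The summed level of the 44 genes was 813 ± 131 CPM in Ob + RSV (SD, n = 3), 885 ± 11.8 CPM in Ob + EAE (n = 2), 935 CPM in Ob + CUR (n = 1), 1032 ± 164 CPM in Ob (n = 3) and 923 ± 318 CPM in C (n = 3). The spread in C came from replicate 3, which was the highest of all 12 libraries for 17 of the 44 genes. The ratio of fibrillar to type IV chains (log2 of the summed CPM) was -0.19 ± 0.27 in Ob + RSV, -0.37 ± 0.04 in Ob + EAE, -0.50 in Ob + CUR, -0.27 ± 0.12 in Ob and -0.22 ± 0.11 in C. The ratio was thus below 0 on average in each group, and the values of Ob + RSV, Ob and C overlapped. No test was run on these sums, since they are scores over the members. Fewer cells of a type and less RNA per cell cannot be told apart in such bulk samples.

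With RSV, collagen transcripts tended to lie lower than in Ob, but none of the 44 passed the adjusted test. The log2FC for Ob + RSV vs. Ob was above 0 in 11 of 44 genes (25.0%, against 49.6% of all genes) and below 0 in the other 33, and its median was -0.37, against 0.00 over all 33534 genes tested. By edgeR's quasi-likelihood test, 0 of 44 genes were called (an adjusted p under 0.05 with a log2FC of 1 or more in size), as were 0.0% of all genes, and DESeq2 called 0 of 44 too. At an unadjusted p under 0.05 there were 8 of 44 genes, all lower in Ob + RSV (18.2%, against 1.5% of all genes in that direction), and 0 were higher (1.66% of all genes). In 9 of 44 genes each Ob + RSV library lay below each Ob library (20.5%, against 4.11% of all genes), and in 0 genes above (2.85%). The count of 8 rested on single libraries, being 3 without Ob replicate 3, 4 without Ob + RSV replicate 2 and 5 without Ob replicate 2.

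The fibrillar chain Col5a3, which joins heterotrimers of type V collagen, had the smallest p of the 44 genes. It measured 7.63, 8.50 and 11.4 CPM in Ob + RSV, against 12.8, 23.5 and 17.3 CPM in Ob, and 17.1, 21.6 and 24.8 CPM in C. Each Ob + RSV library was below each Ob and each C library. The log2FC was -0.96 (SE 0.29; edgeR adjusted p = 1.0) for Ob + RSV vs. Ob and -1.22 (SE 0.29; edgeR adjusted p = 1.0) for Ob + RSV vs. C. These comparisons share the Ob + RSV libraries. For Ob + RSV vs. C, Col5a3 was called when every gene with at least 1 read in total was kept (edgeR adjusted p = 0.037), and its edgeR adjusted p was 0.235 to 1.0 with single libraries left out.

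Col5a3 was low in the other treated libraries as well. It measured 10.6 and 12.0 CPM in Ob + EAE and 9.78 CPM in Ob + CUR, so that the 6 libraries of treated mice (7.63 to 12.0 CPM) lay below the 6 libraries of mice given vehicle (12.8 to 24.8 CPM). This split of the libraries was chosen after the values were seen and was not tested. Among the 44 genes it was complete for Col5a3 alone, and 0.124% of all 36164 genes lay lower in this way. No collagen gene lay higher in all 6 treated libraries (0.102% of all genes).

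The multiplexin Col18a1, a proteoglycan of basement membranes and the source of endostatin, measured 23.2, 26.8 and 26.1 CPM in Ob + RSV, against 37.5, 40.8 and 43.8 CPM in Ob. The groups did not overlap, and the log2FC was -0.68 (SE 0.25; edgeR adjusted p = 1.0). In C it measured 25.5, 22.4 and 47.3 CPM, so 2 of 3 C libraries lay at the level of Ob + RSV. The FACIT chain Col9a2, a chain of type IX collagen, measured 38.3, 32.9 and 29.2 CPM in Ob + RSV, against 44.7, 52.4 and 52.5 CPM in Ob. Its log2FC was -0.57 (SE 0.24; edgeR adjusted p = 1.0). Col22a1, a FACIT chain known from tissue junctions such as that of muscle and tendon, measured 2.91, 1.11 and 1.85 CPM in Ob + RSV, against 4.95, 3.77 and 5.58 CPM in Ob. Its log2FC was -1.28 (SE 0.52; edgeR adjusted p = 1.0), again without overlap.

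Col7a1, the chain of the anchoring fibrils of skin, and Col6a1, a chain of beaded filaments, showed the same order of groups. Col7a1 measured 11.4, 13.6 and 13.2 CPM in Ob + RSV, against 23.1, 20.3 and 19.4 CPM in Ob. Col6a1 measured 14.5, 18.7 and 18.6 CPM in Ob + RSV, against 23.9, 25.4 and 32.3 CPM in Ob. In C, however, Col7a1 measured 8.85, 8.20 and 23.3 CPM, and Col6a1 measured 18.5, 10.4 and 34.9 CPM, so that C spanned both groups. The remaining genes at an unadjusted p under 0.05 were Col5a2 and Col4a3, whose libraries overlapped between the groups.

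**Figure D2:**
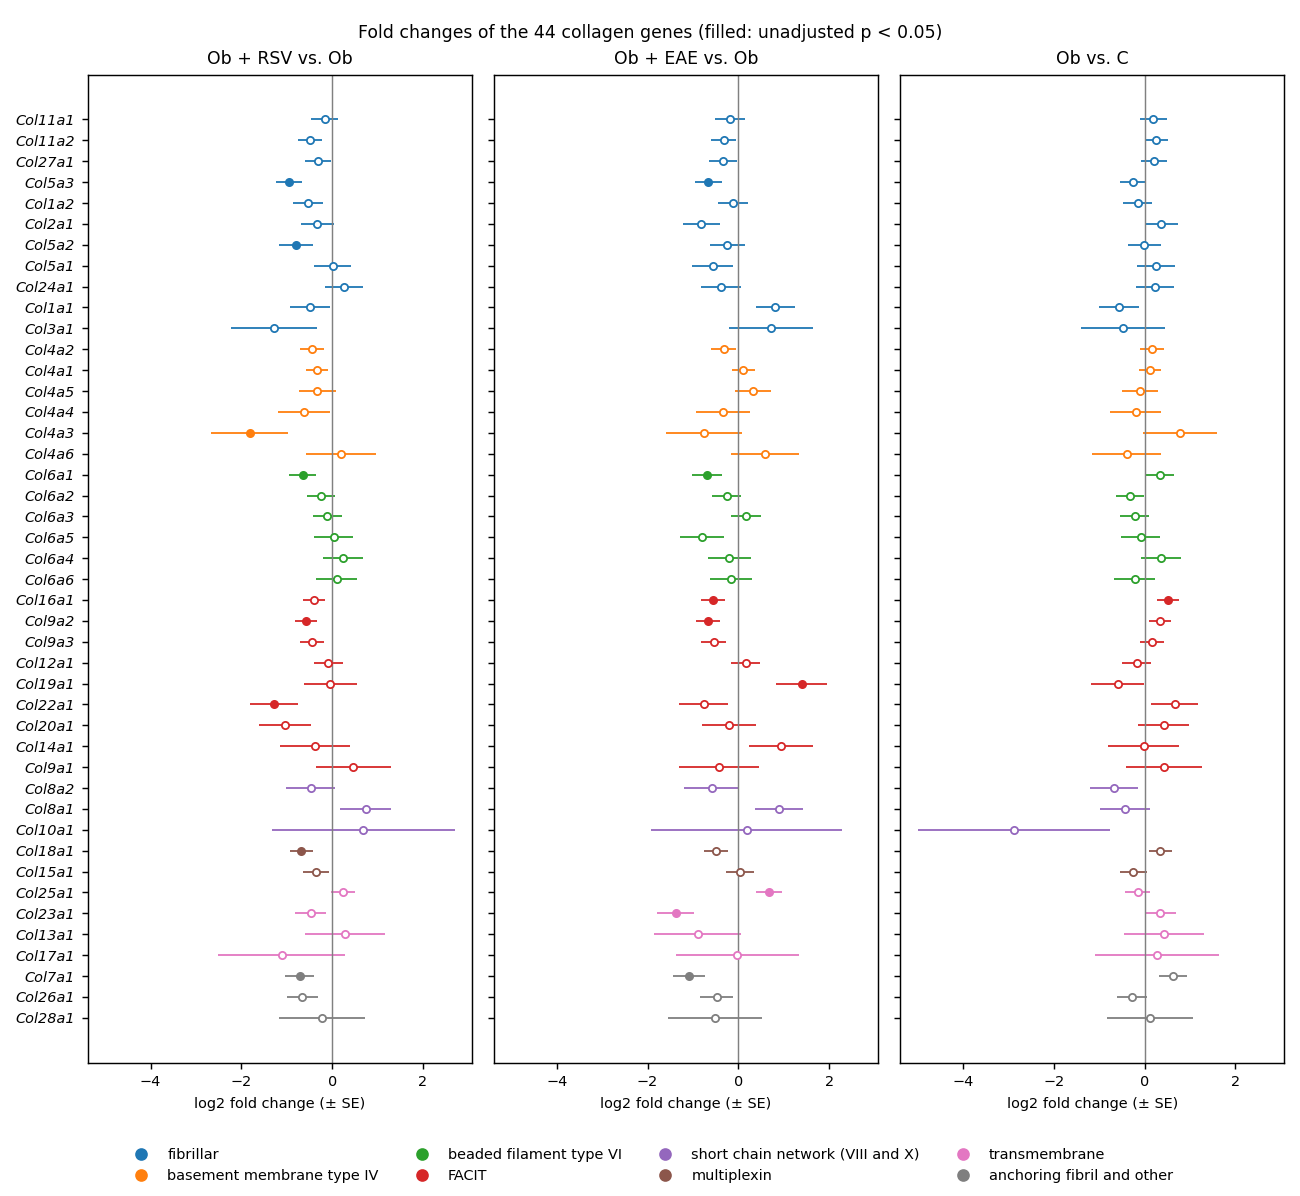
The log2FC (± SE) of each of the 44 collagen genes in Ob + RSV vs. Ob, Ob + EAE vs. Ob and Ob vs. C, ordered and colored by class, with filled points at an unadjusted p under 0.05. In Ob + RSV vs. Ob, 33 of 44 points lie left of 0 and the 8 filled points do so too, while a single point (Col16a1) is filled in Ob vs. C.

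The 6 chains with the highest mean CPM did not separate Ob + RSV from Ob. Col4a2 measured 97.1, 187.1 and 125.1 CPM in Ob + RSV, against 154.6, 184.4 and 222.5 CPM in Ob. Col25a1, a transmembrane collagen of neurons, measured 75.3, 63.1 and 158.9 CPM in Ob + RSV, against 69.8, 77.2 and 105.7 CPM in Ob. Col11a1, the leading fibrillar chain, measured 40.2, 62.8 and 75.7 CPM in Ob + RSV, against 43.5, 61.4 and 96.1 CPM in Ob. The groups overlapped for all 3 genes. The log2FC was -0.45 for Col4a2, 0.24 for Col25a1, -0.16 for Col11a1, -0.33 for Col4a1, -0.40 for Col16a1 and -0.49 for Col11a2, with SEs of 0.24 to 0.30. The direction for Col25a1 turned to -0.29 without Ob + RSV replicate 3, and that for Col11a1 turned to 0.19 without Ob replicate 3 and to 0.06 without Ob + RSV replicate 1.

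Col16a1, Col4a1 and Col11a2 overlapped between Ob + RSV and Ob too, Col16a1 only in part. Next by mean CPM came Col9a2 and Col18a1, named above, whose libraries did not overlap. Col16a1 measured 75.6, 110.8 and 97.9 CPM in Ob + RSV, against 141.9, 127.1 and 108.2 CPM in Ob, so that a single Ob + RSV library reached the lowest Ob library. Col4a1 measured 50.6, 68.0 and 58.1 CPM in Ob + RSV, against 60.6, 73.4 and 88.8 CPM in Ob. Col11a2, which joins Col11a1 in type XI collagen, measured 36.0, 50.9 and 48.5 CPM in Ob + RSV, against 46.8, 68.6 and 74.8 CPM in Ob. Col8a2, the leading chain of the short network collagens, measured 1.70, 4.63 and 3.47 CPM in Ob + RSV, 3.21 and 2.87 CPM in Ob + EAE, 2.02 CPM in Ob + CUR, 1.59, 9.68 and 2.42 CPM in Ob and 8.37, 9.53 and 3.67 CPM in C. Its spread within Ob spanned nearly all of these values. In the remaining groups, Col11a1 measured 60.4 and 57.5 CPM in Ob + EAE, 71.3 CPM in Ob + CUR and 50.8, 32.6 and 90.9 CPM in C, and Col16a1 measured 90.7 and 79.4 CPM in Ob + EAE.

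By class, the median log2FC for Ob + RSV vs. Ob was -0.48 for fibrillar chains, -0.39 for type IV, -0.40 for FACIT chains, -0.52 for multiplexins, -0.66 for the other chains, -0.12 for transmembrane collagens and -0.04 for type VI, while the 3 chains of types VIII and X had a median of 0.68. The lower values were thus spread over fibrillar, basement membrane and fibril-associated chains. The 8 genes at an unadjusted p under 0.05 comprised 2 of 11 fibrillar, 1 of 6 type IV, 1 of 6 type VI, 2 of 9 FACIT, 1 of 2 multiplexin and 1 of 3 other chains.

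The base composition of the transcripts moved with these fold changes. The median GC content was 55.1% for the collagen genes and 49.9% for protein-coding genes with at least 10 reads. Across the 44 genes, GC content and log2FC for Ob + RSV vs. Ob had a Pearson r of -0.30, and across 14108 protein-coding genes with at least 20 reads per library on average it was -0.305. The 22 collagen genes above the median GC had a median log2FC of -0.48 and the other 22 had -0.09, while protein-coding genes above and below the same GC content had medians of -0.18 and 0.03. Of the GC-rich collagen genes 5 of 22 were lower at an unadjusted p under 0.05, against 3.90% of the 3284 GC-rich protein-coding genes, and of the others 3 of 22, against 1.16% of 10824. The part of GC content in the result was not tested. These points share libraries and depth, and genes are not replicates.

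**Figure D3:**
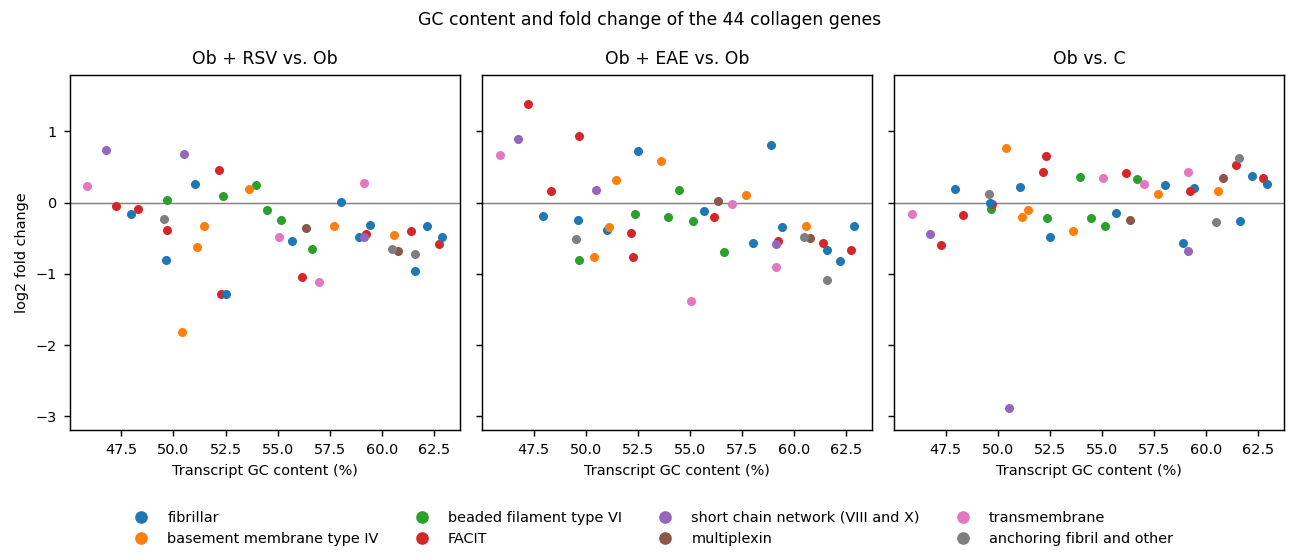
GC content of the transcripts (percent, horizontal axis) and log2FC (vertical axis) of the 44 collagen genes in Ob + RSV vs. Ob, Ob + EAE vs. Ob and Ob vs. C, colored by class. Points at high GC content lie mostly below 0 in Ob + RSV vs. Ob (r = -0.30) and Ob + EAE vs. Ob (r = -0.49), and tend upward in Ob vs. C (r = 0.27).

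Marker levels of fibroblasts, vascular cells, neurons and the oligodendrocyte lineage overlapped between Ob + RSV and Ob, in part through single libraries. The summed markers of leptomeningeal and perivascular fibroblasts ranged from 93.2 to 112.9 CPM in Ob + RSV, against 81.8 to 115.8 CPM in Ob (12 of 12 markers with reads in each group). Endothelial markers ranged from 137.5 to 165.0 CPM in Ob + RSV, against 159.8 to 226.5 CPM in Ob (10 of 10 with reads). Only Ob + RSV replicate 1 reached the range of Ob there. Pericyte and smooth muscle markers ranged from 128.9 to 153.5 CPM, against 141.6 to 201.2 CPM (9 of 9 with reads). Pan-neuronal markers ranged from 2073 to 2832 CPM in Ob + RSV, against 1924 to 2229 CPM in Ob. Oligodendrocyte lineage markers ranged from 5265 to 6812 CPM, against 4983 to 5323 CPM, and only Ob + RSV replicate 2 lay within the range of Ob. Their part in the result was not tested.

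Ob + RSV vs. C gave a like count with other genes in part. Of the 44 genes, 7 were at an unadjusted p under 0.05, all lower in Ob + RSV (15.9%, against 1.4% of all genes), 0 were higher (1.47% of all genes), and 0 were called by edgeR (0.0% of all genes) or by DESeq2. The libraries did not overlap in 2 genes that were lower (4.55%, against 3.12% of all genes) and 2 that were higher (4.55%, against 2.31%). Besides Col5a3, the genes with the smallest p were Col26a1, Col1a1 and Col5a2. Col1a1, the main chain of type I collagen, measured 4.24, 1.42 and 5.55 CPM in Ob + RSV, against 8.33, 7.31 and 7.14 CPM in C, and its log2FC was -1.04 (SE 0.44; edgeR adjusted p = 1.0). In Ob it measured 3.85, 5.10 and 6.70 CPM, overlapping with Ob + RSV and each below each C library. Col26a1 (log2FC -0.94, SE 0.34; edgeR adjusted p = 1.0) and Col5a2 (log2FC -0.81, SE 0.37; edgeR adjusted p = 1.0) overlapped between the groups. Col5a2 pairs with Col5a1 in type V collagen. The log2FC was above 0 in 10 of 44 genes (22.7%, against 49.2% of all genes). The median log2FC of the 44 genes, -0.29, became 0.063 without C replicate 3, and the count of 7 became 4 without Ob + RSV replicate 2.

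Ob vs. C gave no called collagen gene, and C itself spread widely. The median log2FC was 0.12, against -0.00 over all genes, and 23 of 44 genes had a log2FC above 0 (52.3%, against 48.8% of all genes). By edgeR 0 of 44 were called (0.0% of all genes), DESeq2 called 0 too, and 1 gene was at an unadjusted p under 0.05, higher in Ob (2.27%, against 1.35% of all genes higher and 1.4% lower, 2.75% in all). That gene was Col16a1, a FACIT chain, at 141.9, 127.1 and 108.2 CPM in Ob, against 71.1, 59.8 and 128.9 CPM in C. The groups overlapped through C replicate 3, and the log2FC was 0.52 (SE 0.24; edgeR adjusted p = 1.0). One gene was higher in each Ob library than in each C library (Col22a1; 4.09% of all genes) and one was lower (Col1a1; 3.56% of all genes).

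This comparison moved with several single libraries. Without C replicate 3, 9 of 44 genes were at an unadjusted p under 0.05, all higher in Ob, and the median log2FC was 0.41. Without C replicate 2 the count was 0 and the median -0.090, and without Ob replicate 3 the count was 2 and the median -0.087. The count was also 0 without C replicate 1 or Ob replicate 1, and 2 without Ob + RSV replicate 1 or 3, which enter it through the shared fit. The shares of all genes at that p in these fits are not given here. The counts thus show the dependence on single libraries alone. C replicate 3 had the highest Col4a2 (256.4 CPM, against 119.4 and 120.7 CPM in the other C libraries), Col9a2 (57.5 CPM, against 33.1 and 25.8 CPM) and Col18a1. Its fibroblast markers were the lowest of C, 75.5 CPM against 195.6 and 124.8 CPM, whereas its endothelial markers were the highest, 181.5 CPM against 124.6 and 108.1 CPM. Their part in the result was not tested.

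Among the other named genes of Ob vs. C, the log2FC was 0.63 for Col7a1, 0.35 for Col9a2, 0.34 for Col18a1, 0.26 for Col11a2, 0.19 for Col11a1, 0.16 for Col4a2, 0.12 for Col4a1 and -0.16 for Col25a1, with SEs of 0.24 to 0.32 and an edgeR adjusted p of 1.0 for each. Those of Col4a2, Col4a1 and Col11a1 were below 0 with C replicate 2 left out (-0.019, -0.10 and -0.09). The same happened to Col4a2 without C replicate 1, and to Col4a1 and Col11a1 without Ob replicate 3. Col25a1 measured 69.8, 77.2 and 105.7 CPM in Ob, against 110.3, 72.5 and 95.2 CPM in C. Col11a2 measured 46.8, 68.6 and 74.8 CPM in Ob, against 38.5, 37.9 and 81.1 CPM in C. Both pairs of groups overlapped.

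**Figure D4:**
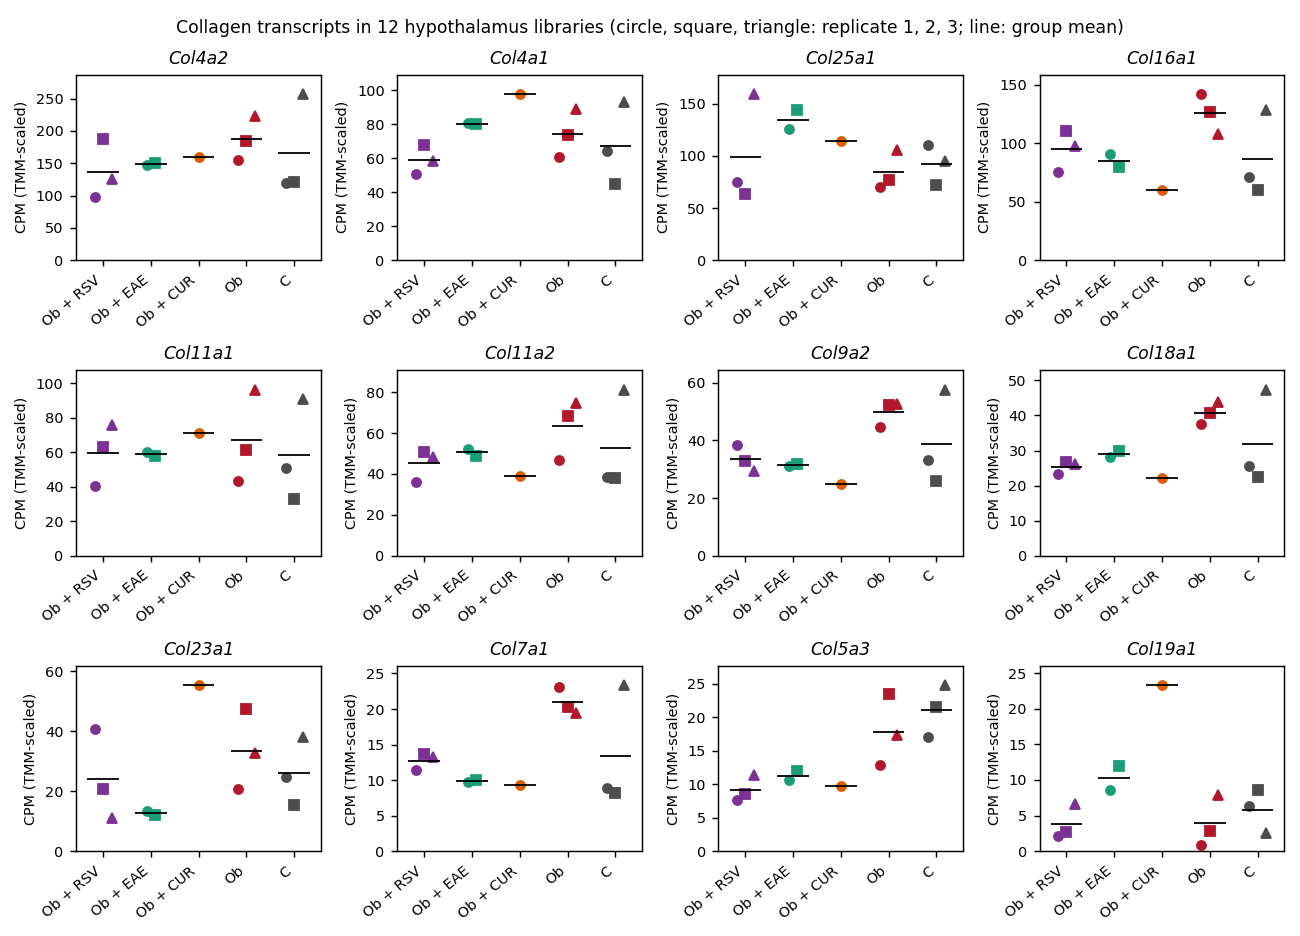
CPM (TMM-scaled, vertical axes from 0) of 12 collagen genes in each library, in Ob + RSV, Ob + EAE, Ob + CUR, Ob and C from left to right, with circles, squares and triangles for replicates 1, 2 and 3 and a line for the mean of each group. Col18a1, Col9a2 and Col7a1 are high in the 3 Ob libraries and in C replicate 3, and Col5a3 is low in all 6 treated libraries (7.63 to 12.0 CPM).

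In Ob + EAE vs. Ob no collagen gene was called by edgeR (0 of 44, against 1.84% of all 36164 genes), while DESeq2, which gave an adjusted p for 34 of the 44, called 2 (Col23a1 and Col7a1), both lower in Ob + EAE. At an unadjusted p under 0.05, 2 genes were higher (4.55%, against 6.87% of all genes) and 6 were lower (13.6%, against 6.48%). Of 14108 protein-coding genes with at least 20 reads per library on average, 13.5% were higher and 13.1% lower, near the collagen share for lower genes. Of the GC-rich ones, 19.6% were lower. The libraries did not overlap in 5 genes that were higher (11.4%, against 23.3% of all genes) and 15 that were lower (34.1%, against 15.5%). The median log2FC was -0.33, against 0.05 over all genes, and 13 of 44 genes had a log2FC above 0 (29.5%, against 52.0%). The count of 8 was 2 without Ob + EAE replicate 2, and 4 without Ob + EAE replicate 1 or Ob replicate 2.

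Col23a1, a transmembrane collagen, measured 13.5 and 12.1 CPM in Ob + EAE, against 20.6, 47.3 and 32.6 CPM in Ob. Its log2FC was -1.39 (SE 0.40; edgeR adjusted p = 0.0604). It was called by edgeR when C replicate 3 (edgeR adjusted p = 0.0316), Ob replicate 3 (0.0271), Ob + RSV replicate 1 (0.0186) or Ob + RSV replicate 3 (0.0139) was left out, and the edgeR adjusted p was 0.0683 to 0.622 without one of the others. Ob + RSV replicate 3 had a like level of 10.98 CPM, whereas Ob + CUR had 55.2 CPM. Col7a1 measured 9.80 and 10.01 CPM in Ob + EAE, against 23.1, 20.3 and 19.4 CPM in Ob, with a log2FC of -1.08 (SE 0.35; edgeR adjusted p = 0.103). It was called by edgeR without C replicate 3 (edgeR adjusted p = 0.0295) and not without any other single library. Without Ob replicate 1 the log2FC was -0.96 (edgeR adjusted p = 0.395).

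Of the FACIT chains, Col9a2 measured 31.1 and 31.7 CPM in Ob + EAE, against 44.7, 52.4 and 52.5 CPM in Ob (log2FC -0.67, SE 0.27; edgeR adjusted p = 0.216). Col19a1, a FACIT chain that interneurons secrete, measured 8.55 and 12.0 CPM in Ob + EAE, against 0.934, 2.90 and 7.94 CPM in Ob (log2FC 1.39, SE 0.56; edgeR adjusted p = 0.228). It was called by edgeR without Ob replicate 3 (log2FC 2.42; edgeR adjusted p = 0.00542) and not without any other single library. The log2FC was 0.97 without Ob replicate 1 (edgeR adjusted p = 0.704) and 1.26 without Ob replicate 2 (edgeR adjusted p = 0.424). In C it measured 6.31, 8.64 and 2.58 CPM, so that C replicate 2 lay above the lower Ob + EAE library. The neuronal Col25a1 also lay above Ob in both libraries, at 125.5 and 143.5 CPM in Ob + EAE.

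The single Ob + CUR library has no replicate check, and its values are a description. Of the 44 genes, 3 had a log2FC of at least 1 in the higher direction (17.9% of all genes) and 8 in the lower direction (17.9% of all genes), and 23 of 44 had a log2FC above 0 (50.0% of all genes). Col19a1 measured 23.3 CPM in Ob + CUR, against 0.934, 2.90 and 7.94 CPM in Ob, a log2FC of 2.57. Col6a5, a type VI chain, measured 2.61 CPM, against 4.29, 12.1 and 19.0 CPM in Ob (log2FC -2.17). Col16a1 measured 60.1 CPM, against 141.9, 127.1 and 108.2 CPM in Ob (log2FC -1.07), and Col9a2 24.9 CPM, against 44.7, 52.4 and 52.5 CPM in Ob (log2FC -1.001). With the spread of the other groups assumed for it, 0 of 44 genes passed the adjusted edgeR test (0.166% of all genes). DESeq2 gave an adjusted p for 9 of the 44 genes, Col19a1 and Col6a5 not among them, and called none of the 9. Under the same assumption edgeR called Col19a1 without C replicate 3, Ob replicate 3, Ob + RSV replicate 1 or 3, or Ob + EAE replicate 1 or 2 (edgeR adjusted p = 0.00117 to 0.0432), and not without any of the other 5 libraries that could be left out (edgeR adjusted p = 0.0809 to 0.311).

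GC content and transcript length also moved with the values of Ob + EAE and Ob + CUR. Across the 44 genes, GC content and log2FC had a Pearson r of -0.49 in Ob + EAE vs. Ob and -0.58 in Ob + CUR vs. Ob, against -0.22 and -0.29 across 14108 protein-coding genes. Of the lower genes named above, Col16a1 (61.4%), Col9a2 (62.7%) and Col7a1 (61.6%) are GC-rich, Col23a1 lies at the collagen median (55.1%) and Col6a5 lies below it (49.7%). Col19a1 (47.3%) and Col25a1 (45.9%), which lay above Ob in Ob + EAE and Ob + CUR, lie below it too. Over protein-coding genes the log2 length of the exons and the log2FC had an r of 0.54 and 0.51, while over the collagen genes it was 0.17 and 0.15. Vascular and fibroblast markers lay higher too. Endothelial markers summed to 317.3 and 326.1 CPM in Ob + EAE and 350.6 CPM in Ob + CUR, against 159.8 to 226.5 CPM in Ob, and pericyte and smooth muscle markers to 214.4 and 215.4 CPM in Ob + EAE and 239.9 CPM in Ob + CUR, against 141.6 to 201.2 CPM in Ob. Fibroblast markers summed to 123.2 and 133.4 CPM in Ob + EAE and 125.8 CPM in Ob + CUR, against 81.8 to 115.8 CPM in Ob. The part of these in the results was not tested.

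The main type IV chains did not separate from Ob in 1 common direction. Col4a1 measured 80.4 and 80.0 CPM in Ob + EAE and 97.5 CPM in Ob + CUR, against 60.6, 73.4 and 88.8 CPM in Ob and 64.5, 44.8 and 93.1 CPM in C. Col4a2 measured 147.6 and 150.4 CPM in Ob + EAE and 159.3 CPM in Ob + CUR, against 154.6, 184.4 and 222.5 CPM in Ob and 119.4, 120.7 and 256.4 CPM in C. Col4a1 in Ob + EAE thus lay within the range of Ob, whereas Col4a2 lay just below each Ob library. The rarer chains Col4a3 to Col4a6, which form the networks of kidney and other epithelia, ranged from 0.220 to 12.1 CPM. In Ob + CUR, Col4a3 and Col4a5 had their highest values of the 12 libraries (4.97 and 12.1 CPM).

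Chains that share a trimer or a fibril, and Col1a1 with Col4a1 from different classes, were compared across the 12 libraries in 8 pairs. Levels entered as log2(CPM + 0.1), with two-sided permutation tests of 100000 resamples and adjustment over the 8 pairs. The permutations took the libraries as exchangeable across the groups. Some libraries were closer to each other than others, as given above, so these p-values may be too small. Col4a1 and Col4a2 had a Pearson r of 0.75 (permutation p = 0.00541, adjusted p = 0.0318) and a Spearman rho of 0.71 (permutation p = 0.0121, adjusted p = 0.0906). Without the 2 libraries farthest from the median of Col4a1 the r was 0.61 (permutation p = 0.0611, adjusted p = 0.122), so the relation past the threshold rested on those libraries. The adjusted permutation p was above 0.05, at 0.0518 to 0.0816, with the omission of C replicate 1, of Ob replicate 2 or 3, or of Ob + RSV replicate 1. The ratio of Col4a2 to Col4a1 in CPM was 1.92, 2.75 and 2.15 in Ob + RSV, 1.84 and 1.88 in Ob + EAE, 1.63 in Ob + CUR, 2.55, 2.51 and 2.51 in Ob and 1.85, 2.69 and 2.76 in C. It was lowest in Ob + CUR, and Ob + RSV and C spread on both sides of Ob. The genes overlap each other in the annotation, on opposite strands, and the strand setting of the counting is not given in the sources used here.

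**Figure D5:**
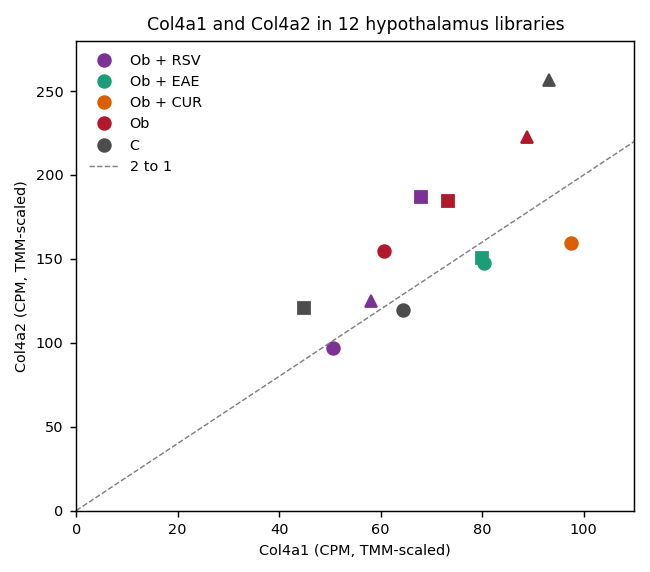
Col4a1 (horizontal axis) and Col4a2 (vertical axis) in CPM (TMM-scaled) in the 12 libraries, colored by group, with circles, squares and triangles for replicates 1, 2 and 3 and a dashed line at 2 to 1. The Ob + CUR library (97.5 and 159.3 CPM) and both Ob + EAE libraries lie under the line, and the 3 Ob libraries lie above it.

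Col1a1 and Col3a1, which meet in the common interstitial fibril, had a Pearson r of 0.81 (permutation p = 0.00795, adjusted p = 0.0318) and a Spearman rho of 0.65 (permutation p = 0.0262, adjusted p = 0.0906). The r rested on Ob + RSV replicate 2, where Col3a1 had 0 reads and Col1a1 its lowest level (1.42 CPM). Without the 2 libraries farthest from the median of Col1a1 it was 0.48 (permutation p = 0.156, adjusted p = 0.208), and without Ob + RSV replicate 2 alone 0.45 (permutation p = 0.17, adjusted p = 0.273). The adjusted permutation p was also above 0.05 without C replicate 1, Ob replicate 2 or 3, Ob + RSV replicate 1 or Ob + EAE replicate 1 (0.0518 to 0.0551). Genes with under 10 reads made up 7.30% of those detected in Ob + RSV replicate 2, fewer than in any other library, so a count of 0 there is not a measured absence. The other 6 pairs did not pass the threshold: r was 0.61 for Col1a1 with Col1a2, 0.55 for Col6a1 with Col6a2, 0.40 for Col5a1 with Col5a2, 0.32 for Col1a1 with Col4a1, 0.26 for Col9a1 with Col9a2 and -0.16 for Col8a1 with Col8a2. Of these, Col1a1 with Col1a2 passed it without C replicate 3 (r = 0.76, adjusted permutation p = 0.0399), Col6a1 with Col6a2 without C replicate 2 (r = 0.79, adjusted permutation p = 0.0206) and Col8a1 with Col8a2 without Ob replicate 1 (r = -0.70, adjusted permutation p = 0.0417). With C replicate 2, Ob replicate 1 and Ob + RSV replicate 2 left out together, a setting chosen after seeing the data, Col6a1 with Col6a2 (r = 0.91, adjusted permutation p = 0.00024) and Col5a1 with Col5a2 (r = 0.87, adjusted permutation p = 0.0134) passed it.

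The genes that process, bind, degrade or accompany collagen gave 0 calls by edgeR for Ob + RSV vs. Ob as well as for Ob vs. C (0.0% of all genes in each). At an unadjusted p under 0.05 there were 3 of the 73 tested in each, all lower (4.11%, against 1.5% of all genes for Ob + RSV vs. Ob and 1.4% for Ob vs. C). They were Hspg2, Lamb2 and the propeptide protease Adamts14 (0 CPM in each Ob + RSV library, at most 0.44 CPM in Ob) for Ob + RSV vs. Ob. For Ob vs. C they were the receptor Ddr2, Timp3 and Fmod. DESeq2 called 0 of all genes in both. In Ob + RSV vs. Ob, 12 of 14 hydroxylases and glycosyltransferases, which modify the chains before they fold, had a log2FC below 0, with a median of -0.26. P3h3, a prolyl hydroxylase, measured 49.9, 77.0 and 59.7 CPM in Ob + RSV, against 70.4, 95.5 and 90.8 CPM in Ob (log2FC -0.46, SE 0.25; edgeR adjusted p = 1.0). Serpinh1, the collagen chaperone HSP47, measured 22.0, 7.39 and 14.7 CPM in Ob + RSV, against 19.5, 28.1 and 19.3 CPM in Ob (log2FC -0.61, SE 0.31; edgeR adjusted p = 1.0). The propeptide proteases and enhancers had 6 of 8 genes below 0, the chaperones 6 of 8, the cross-linking enzymes 4 of 7, the collagen receptors 5 of 9 and the collagenases and their inhibitors 4 of 10.

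Among 17 partners of collagen in fibrils and basement membranes, 11 had a log2FC below 0 in Ob + RSV vs. Ob (median -0.17) and 2 were at an unadjusted p under 0.05. Hspg2, the basement membrane proteoglycan perlecan, measured 4.56, 6.72 and 5.61 CPM in Ob + RSV, against 7.64, 8.81 and 11.9 CPM in Ob. The groups did not overlap, and the log2FC was -0.74 (SE 0.34; edgeR adjusted p = 1.0). In Ob vs. C, the smallest p among these lists belonged to Fmod, fibromodulin, at 1.87, 3.59 and 1.43 CPM in Ob, against 16.3, 4.49 and 2.44 CPM in C (log2FC -1.78; edgeR adjusted p = 1.0). Timp3, an inhibitor of matrix proteases, measured 18.7, 34.6 and 18.2 CPM in Ob, against 74.9, 62.5 and 15.2 CPM in C (log2FC -1.12; edgeR adjusted p = 1.0), where C replicate 3 again stood apart.

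In Ob + EAE vs. Ob, 3 of the 73 genes tested in these lists passed the edgeR test (4.11%, against 1.84% of all genes), and they are named after their values were seen. At an unadjusted p under 0.05, 12 of the 73 were higher (16.4%, against 6.87% of all genes) and 0 were lower (6.48%). Among the 14108 protein-coding genes with at least 20 reads per library on average, the shares were 13.5% and 13.1%. Fn1, fibronectin, measured 48.2 and 57.7 CPM in Ob + EAE, against 12.0, 16.5 and 17.9 CPM in Ob (log2FC 1.77, SE 0.39; edgeR adjusted p = 0.0163). It measured 57.48 CPM in Ob + CUR and 41.05, 8.919 and 9.116 CPM in C. Hspg2 measured 22.1 and 23.8 CPM in Ob + EAE, against 7.64, 8.81 and 11.9 CPM in Ob (log2FC 1.28, SE 0.29; edgeR adjusted p = 0.0182). It measured 21.96 CPM in Ob + CUR and 11.38, 10.08 and 9.445 CPM in C. Timp3 measured 71.9 and 86.7 CPM in Ob + EAE, against 18.7, 34.6 and 18.2 CPM in Ob (log2FC 1.74, SE 0.38; edgeR adjusted p = 0.015). They were called by DESeq2 too. The call of all 3 was lost without Ob replicate 1 (edgeR adjusted p = 0.17 for Fn1, 0.152 for Hspg2 and 0.158 for Timp3) and without Ob + EAE replicate 2 (0.181, 0.389 and 0.156). That of Hspg2 was also lost without Ob replicate 2 or Ob + EAE replicate 1. With edgeR's own expression filter the edgeR adjusted p was 0.0709, 0.0513 and 0.0681, and without C replicate 2, Ob replicate 1 and Ob + RSV replicate 2 together it was 0.295, 0.241 and 0.323. Of the 17 partners 15 had a log2FC above 0 (median 0.48), while the median of the 6 type IV chains was -0.11.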

How the data were processed

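Poly(A) RNA of 12 hypothalami was sequenced as 150 bp read pairs with a stranded kit. The authors aligned the reads and counted them per gene (HISAT2 and featureCounts, by the methods of the study), and the submitters' processing notes name GRCm39. The deposited values are whole, unscaled read counts for 78334 gene IDs. Neither the release of the annotation nor the settings for strand and multiple matches were given in the sources used here. Symbols were matched by gene ID (51486 IDs, 98.1% of the counts), and exon length, GC content and biotype from GENCODE vM21, which lies on another build, so positions are given for the RefSeq promoters alone. By that annotation, exons of 13 of the 44 genes overlap another gene, 10 of them on the opposite strand, among them Col4a1 with Col4a2. Reads of such genes may be mixed.

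Counts were tested with edgeR 4.0.16 on R 4.3.3 (glmQLFit and glmQLFTest, TMM scaling, at least 10 reads in total). The 9 libraries of C, Ob and Ob + RSV entered 1 fit, and all 12 another for Ob + EAE and Ob + CUR, where the single Ob + CUR library is assumed to vary like the other groups. The same assumption holds for Ob + EAE when 1 of its libraries is left out. P-values were adjusted over all genes (Benjamini-Hochberg), and the SE is the log2FC divided by the square root of F. Alternatives were RLE and upper quartile scaling, other filters, DESeq2 1.42.0, a replicate block, other sets of libraries and each library left out. The procedure was tested on data simulated for Ob vs. C. It called 23 of 100 genes with a true log2FC of 1 in size, 82 of 100 with 2 and 13 of 31041 with 0. A collagen gene without a call may therefore still differ by a log2FC of 1. Named genes are the 8 with the highest mean, the leading chain of each class, the 4 with the smallest p in each comparison and up to 2 of each pathway list, and genes named beyond these were chosen after their values were seen. The members, classes and lists were chosen with earlier results of these data known. Tables and plots used Python 3.11.15, pandas 2.3.3, scipy 1.17.1 and matplotlib 3.10.9. The methods of the study speak of biological replicates, but the labels do not tie libraries to mice, so p-values measure the spread between these libraries.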

Additional observations from a re-analysis of the deposited data

How the results depend on the processing

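Scaling did not change a call of a collagen gene: with RLE and upper quartile scaling 0 of 44 were called in each comparison. The filter and the tool changed counts. Counts of collagen genes at an unadjusted p in this section stand without the share of all genes in the same setting. They show the dependence on the setting alone. For Ob vs. C, Ob + RSV vs. Ob and Ob + RSV vs. C, collagen genes at an unadjusted p under 0.05 numbered 0, 4 and 3 with edgeR's expression filter and 0, 5 and 3 with DESeq2. Ob vs. C gave 2 genes with at least 1 read in total, 2 with 12 libraries in the fit and 0 without the 3 libraries C replicate 2, Ob replicate 1 and Ob + RSV replicate 2. Without these 3 libraries the median log2FC of the collagen genes was -0.012 (Ob vs. C) and -0.070 (Ob + CUR vs. Ob), turning the direction, and 10 genes of Ob + RSV vs. Ob stayed under that p, all lower. Over all genes, calls in Ob vs. C, Ob + RSV vs. Ob and Ob + RSV vs. C numbered 35, 11 and 32 with at least 1 read in total, and that filter also called Col5a3 (Ob + RSV vs. C), Col19a1, Col23a1 and Col7a1 (Ob + EAE vs. Ob), and Col16a1, Col19a1 and Col6a5 (Ob + CUR vs. Ob). Calls in Ob + EAE vs. Ob, 665 in the fit reported, were 77 with the expression filter, 1031 with at least 1 read and 1 without the 3 libraries, and those in Ob + CUR vs. Ob, 60 in the fit reported, were 5, 810 and 3, and 283 with DESeq2, which gave an adjusted p for 8119 of 36164 genes there.

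The replicate numbers of the titles did not meet the test for pairs: deviations of same-numbered libraries correlated over 0.1 in 4 of 9 pairs (-0.046 to 0.485, 17813 genes), although 8 of 9 libraries correlated best with their own number. By mean chi-square per gene, Ob and Ob + RSV libraries of number 1, 2 and 3 stood at 29.9, 31.5 and 21.6. Pairs within Ob stood at 57.6 to 70.1 and within Ob + RSV at 65.4 to 73.1. Same-numbered pairs with C ranged from 10.1 (Ob replicate 3) to 93.5 (Ob replicate 1). A factor shared by number was not tested. The counts of collagen genes with the replicate block are in either direction and stand without the share of all genes in that fit. With the replicate block, calls over all genes were 50 (Ob vs. C), 10 (Ob + RSV vs. Ob), 35 (Ob + RSV vs. C), 1417 (Ob + EAE vs. Ob) and 1716 (Ob + CUR vs. Ob). Collagen genes at p under 0.05 before adjustment were 4 (Ob vs. C) and 15 (Ob + RSV vs. Ob), and the block called Col5a3 in Ob + RSV vs. C (edgeR adjusted p = 0.00624), Col19a1 and Col23a1 in Ob + EAE vs. Ob, and Col19a1 and Col6a3 in Ob + CUR vs. Ob.

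Leaving out single libraries moved the collagen genes at that unadjusted p to 0 to 9 (Ob vs. C), 3 to 10 (Ob + RSV vs. Ob), 4 to 8 (Ob + RSV vs. C), 2 to 9 (Ob + EAE vs. Ob) and 10 to 13 (Ob + CUR vs. Ob). Those higher numbered 0 to 9, 0 to 0, 0 to 2, 0 to 4 and 2 to 4 in that order. Calls over all genes ranged from 0 to 11, 0 to 2, 0 to 3, 18 to 1173 and 10 to 453 in the same order. The median log2FC of the collagen genes ranged from -0.090 to 0.41 (Ob vs. C), from -0.46 to 0.063 (Ob + RSV vs. C) and from -0.035 to 0.20 (Ob + CUR vs. Ob). Of 31 named fold changes 0 turned direction under the 263 other settings and 9 of 299 did when 1 library was left out: for Ob vs. C, Col4a2 (-0.019 to 0.62), Col4a1 (-0.10 to 0.42) and Col11a1 (-0.17 to 0.66), and for Ob + RSV vs. Ob, Col25a1 (-0.29 to 0.48) and Col11a1 (-0.39 to 0.19).

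The fibrillar to type IV ratio depends on 1 chain of each class. Without Col11a1 its log2 was -0.76 in Ob + RSV, -0.90 in Ob + EAE, -1.14 in Ob + CUR, -0.76 in Ob and -0.67 in C, and without Col4a2 it was 1.36, 0.99, 0.69, 1.37 and 1.35. Settings for the pairs of chains were chosen after seeing the data, except the 2 farthest libraries (r = 0.61 for Col4a1 with Col4a2, 0.48 for Col1a1 with Col3a1). Without the 3 libraries, r was 0.91 for Col6a1 with Col6a2, 0.87 for Col5a1 with Col5a2, -0.090 for Col9a1 with Col9a2 and 0.50 for Col1a1 with Col3a1. With single libraries left out, r ranged from 0.35 to 0.76 for Col1a1 with Col1a2, from 0.68 to 0.81 for Col4a1 with Col4a2, from 0.28 to 0.79 for Col6a1 with Col6a2, from 0.28 to 0.67 for Col5a1 with Col5a2, from -0.70 to 0.0023 for Col8a1 with Col8a2, from -0.15 to 0.43 for Col9a1 with Col9a2 and from 0.45 to 0.87 for Col1a1 with Col3a1. The cause of these changes was not tested. Depth limits the rarest chains: Col10a1 had 44 reads over the 12 libraries.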
